A study of Mus musculus with 15 samples.

Results

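The genes described here are 22 genes of DNA replication and 24 genes of mitosis, a list of 46 given by symbol. All 46 were found among the 45232 Ensembl gene IDs of the count table, and all 46 were among the 17834 genes that had enough counts to be tested. RNA was sequenced from sorted CD45.2+ LSK cells, the bone marrow fraction without lineage markers and with Sca1 and c-Kit that holds stem and multipotent progenitor cells, in 15 libraries of 5 groups with 3 libraries each. The WT group is labelled wild type with no allele or drug, and the labels do not say whether those mice had been transplanted. The other 4 groups were sorted from lethally irradiated CD45.1 hosts that had received Idh2 R140Q Jak2 V617F marrow together with CD45.1 WT marrow, and CD45.2 marks the cells of the mutant donor. Both alleles are conditional and were switched on by Mx1-Cre, an interferon-responsive Cre induced with polyI:polyC, which is not confined to LSK cells. These recipients were given vehicle, AG221 (an inhibitor of mutant IDH2, 40 mg/kg), ruxolitinib (an inhibitor of JAK1 and JAK2, 60 mg/kg) or both, by gavage 2 times a day over 21 to 28 days, with the last dose about 1.5 hours before sacrifice. The labels give the strain as C57BL/6 and the methods as C57BL/6J, and the study used both sexes at ages from 6 months to 1.5 years. The study counts 3 per group without saying whether a library was 1 mouse or a pool, so p-values measure the spread between these libraries, which may be technical in part.

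Cells copy their DNA after origins are licensed by Cdc6, Cdt1 and the Mcm helicase, which Cdc45 and the GINS complex then activate, while cyclin E drives entry into S phase. Mitosis follows under cyclin A, cyclin B and Cdk1, with the Polo and Aurora kinases building the spindle and the anaphase-promoting complex ending the phase. Most stem cells in adult marrow rest outside the cycle and most multipotent progenitors cycle, so transcripts of these genes are a usual readout of how much of a progenitor population is dividing. Replication genes are classically controlled by E2F factors, and mitotic genes by the MuvB complexes with B-Myb and FoxM1 at CHR elements, often beside CCAAT boxes bound by NF-Y.

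The promoters of the members differed by phase in the letters that these factors read. RefSeq promoter windows (GRCm38.p6, 250 bases before to 50 after the gene start) were at hand for 37 of the 46 members, 17 of replication and 20 of mitosis, and for 27025 genes in all. The E2F element was searched on both strands as TTCCCGC, in the form TTGGCGC, in the form TTCGCGC or in the form TTGCCGC, and it lay in 11 of 17 replication promoters (64.7%, 95% Wilson interval 41.3 to 82.7) and 4 of 20 mitosis promoters (20.0%, 8.07 to 41.6), against 10.9% of all promoters. The CHR element, searched as TTTGAA and in the form TTCGAA, lay in 16 of 20 mitosis promoters (80.0%, 58.4 to 91.9) and 4 of 17 replication promoters (23.5%, 9.56 to 47.3), against 21.7% of all promoters. The CCAAT box was found in 18 of 20 mitosis promoters (90.0%), 10 of 17 replication promoters (58.8%) and 41.1% of all promoters. CCAAT read on the other strand (ATTGG) can share bases with the E2F letters TTGGCGC, and a match in these windows is a description and not a bound site. The shares carry no test, and the table of all promoters holds genes of every kind. The bar plot of promoter elements shows that the E2F letters were the ones most frequent in replication promoters relative to all genes, and the CHR letters in mitosis promoters.

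**Figure D1:**
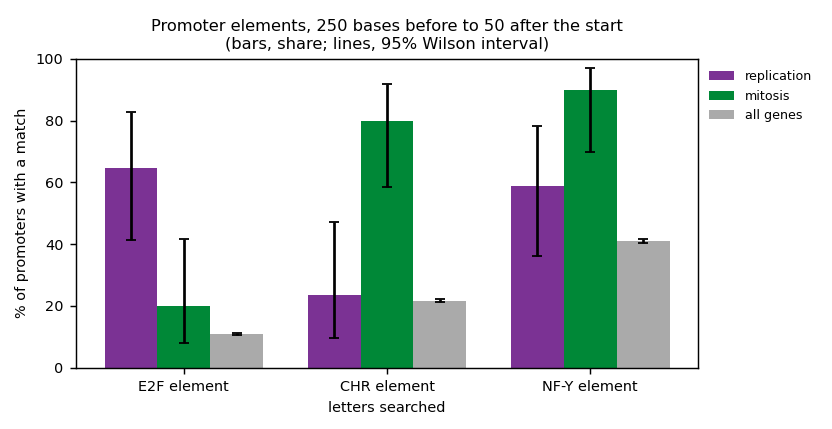
Share of promoters, in percent, that held each element, for replication members, mitosis members and all genes in the table, with 95% Wilson intervals; the NF-Y element is the CCAAT box. E2F letters were in 64.7% of replication promoters and CHR letters in 80.0% of mitosis promoters, against 10.9% and 21.7% of all promoters.

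Printed here are the promoters of the members of each phase that stood nearest to a difference between combined therapy and vehicle and had a window in the table, all on the minus strand. They are Ccne1 (chr7:38107441-38107740) and Pola1 (chrX:93632106-93632405) for replication, and Mki67 (chr7:135716330-135716629) and Kif23 (chr9:61946750-61947049) for mitosis. Capitals mark the E2F, CHR and CCAAT letters on either strand, and the gene start follows base 250.
Ccne1: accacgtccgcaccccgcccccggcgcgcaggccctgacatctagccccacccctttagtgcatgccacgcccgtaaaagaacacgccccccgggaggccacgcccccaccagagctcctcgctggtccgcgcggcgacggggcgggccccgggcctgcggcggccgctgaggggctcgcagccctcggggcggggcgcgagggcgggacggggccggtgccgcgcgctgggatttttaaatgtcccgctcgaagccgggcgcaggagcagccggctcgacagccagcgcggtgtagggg
Pola1: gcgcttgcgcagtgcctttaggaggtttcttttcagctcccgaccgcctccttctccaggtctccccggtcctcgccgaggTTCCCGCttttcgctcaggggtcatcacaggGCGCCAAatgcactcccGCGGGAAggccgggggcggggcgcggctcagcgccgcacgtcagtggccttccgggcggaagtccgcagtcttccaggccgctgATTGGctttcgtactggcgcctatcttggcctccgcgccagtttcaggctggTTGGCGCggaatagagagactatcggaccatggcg
Mki67: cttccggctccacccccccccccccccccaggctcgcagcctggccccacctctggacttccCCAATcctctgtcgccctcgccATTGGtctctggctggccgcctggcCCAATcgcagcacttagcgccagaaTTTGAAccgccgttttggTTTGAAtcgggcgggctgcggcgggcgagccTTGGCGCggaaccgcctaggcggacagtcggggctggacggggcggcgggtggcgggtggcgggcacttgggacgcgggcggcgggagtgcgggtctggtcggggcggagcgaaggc
Kif23: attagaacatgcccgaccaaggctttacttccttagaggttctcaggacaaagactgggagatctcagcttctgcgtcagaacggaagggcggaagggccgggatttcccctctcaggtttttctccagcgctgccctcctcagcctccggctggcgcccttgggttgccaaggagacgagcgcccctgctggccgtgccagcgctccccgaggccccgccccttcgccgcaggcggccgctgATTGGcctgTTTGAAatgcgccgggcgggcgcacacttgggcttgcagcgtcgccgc
The Ccne1 window held none of the letters searched. Pola1 held 4 E2F matches and 1 CCAAT, Mki67 held 3 CCAAT, 2 CHR and 1 E2F match, and Kif23 held 1 CCAAT and 1 CHR match at its start.

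Library depth ran from 18836625 to 32174287 counts, at which 3 counts equal 0.0932 to 0.159 CPM (counts scaled to a common library size). The lowest value of any member was 1.48 CPM, for Fen1 in WT, so no member was near that floor. The labels letter the vehicle, AG221 and ruxolitinib libraries A and the combined therapy and WT libraries B without saying what the letter means. Comparisons of AG221 or ruxolitinib with vehicle, and of combined therapy with WT, therefore stay within a letter, while in every other comparison the letter and the group cannot be told apart. The WT libraries had Xist at 455 to 511 CPM and Ddx3y at no more than 0.101 CPM, and the 12 mutant libraries had Xist at no more than 19.5 and Ddx3y at 124 or more, so sex and genotype cannot be told apart either. The LSK markers were present, with Kit at 740 to 1552 CPM in the 15 libraries and Ly6a, which encodes Sca1, at 13.1 to 166, while the summed level of the 10 genes that define LSK cells was 4279 to 4664 CPM in WT and 2422 to 3758 in the mutant libraries. Vehicle A1, AG221 A8 and A10 and Rux A16 had the lowest medians of log2 CPM over tested genes (2.92 to 3.22 against 3.32 to 3.76 in the other 11). Main results that rest on them are given with and without them, but leaving them out leaves AG221 A9 as the only AG221 library.

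Replication and mitosis genes were higher in vehicle-treated mutant LSK cells than in WT LSK cells. Of the 46 members, 33 rose (16 of 22 replication, 17 of 24 mitosis) and 0 fell in edgeR at a Benjamini-Hochberg adjusted p below 0.05, against 15.4% of all tested genes called higher and 17.9% called lower. The median log2 fold change was 0.69 for replication and 0.62 for mitosis members, beside -0.09 over all tested genes. In 38 of 46 members the ranges of the vehicle and WT libraries were separate, a pattern held by 56.9% of all tested genes. In these bulk samples more cells in cycle and more of these RNAs per cell cannot be told apart. The count fell to 8 without WT B30, to 18 without vehicle A4 and to 19 without vehicle A1, and was 14 under upper quartile normalization, all of them higher. The shares of all tested genes called in either direction were, in the same order, 10.5%, 19.4%, 18.3% and 27.4%, against 33.3% in the main fit. Without the 4 libraries of low median 36 members were called higher and 1 lower, beside 30.5% of all tested genes called in either direction. Markers of other cells moved between the same groups: 4 of 9 neutrophil granule genes were called higher (summed level 3476 to 3833 CPM in WT and 7823 to 12839 in vehicle), 6 of 7 mast cell and basophil genes were called higher (108 to 192 and 623 to 1195 CPM), 5 of 12 erythroid genes were called higher (1687 to 1842 and 2086 to 3221 CPM) and 7 of 8 plasma cell genes were called lower (605 to 1315 and 68.1 to 158 CPM). So did 3 of 7 megakaryocyte genes, called higher (256 to 343 and 864 to 923 CPM), 4 of 7 monocyte and dendritic genes, called higher (181 to 202 and 253 to 380 CPM), and 5 of 8 B lineage genes, called lower (67.6 to 96.8 and 41.0 to 48.3 CPM). The summed level of T and NK genes was 155 to 220 CPM in WT and 409 to 456 in vehicle. Of the 10 LSK-defining genes 1 was called higher and 3 lower (4279 to 4664 and 2422 to 3758 CPM). The part of those cells in the level of the members was not tested.

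**Figure D2:**
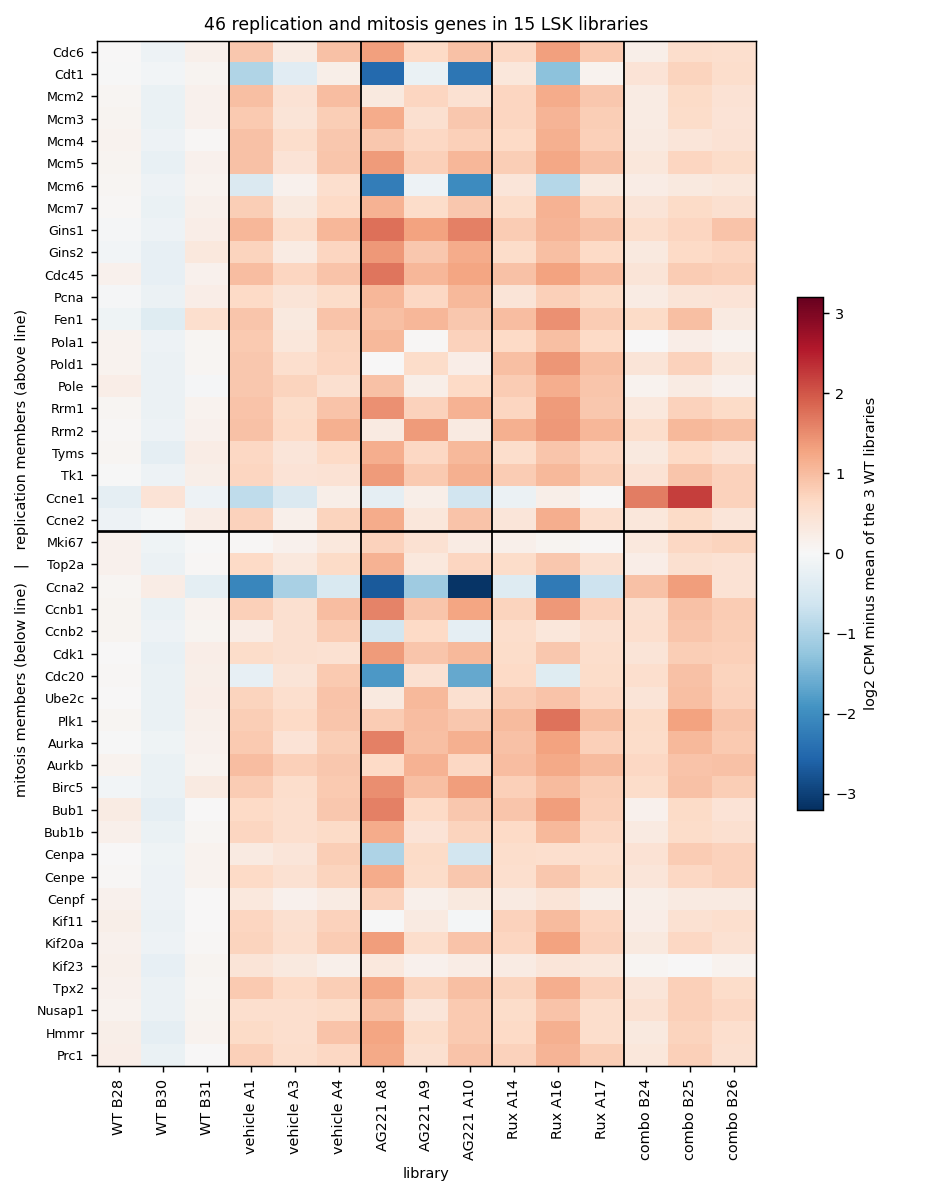
Heatmap of the 46 members (rows, replication above the line and mitosis below) in the 15 libraries (columns), coloured by log2 CPM minus the mean of the 3 WT libraries. Most rows are red in all 12 mutant libraries, while Ccna2, Cdt1, Mcm6 and Cdc20 are blue in AG221 A8 and A10, and Ccne1 is reddest in combo B24 and B25.

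**Figure D3:**
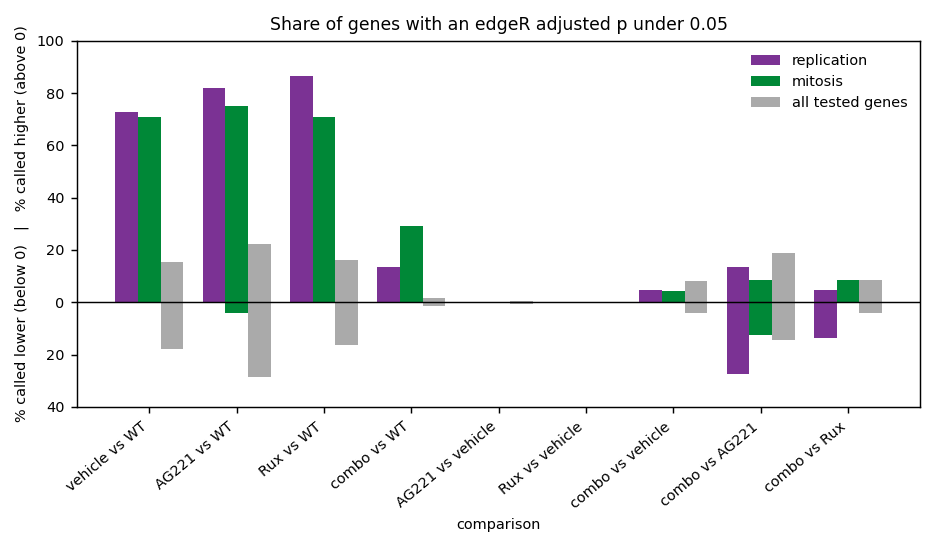
Share of replication members, mitosis members and all tested genes, in percent, called higher (bars above 0) or lower (bars below 0) in 9 comparisons by edgeR at an adjusted p under 0.05. In vehicle against WT, 16 of 22 replication and 17 of 24 mitosis members were called higher and 0 lower, while both treatments alone gave 0 calls against vehicle.

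Most of the helicase genes were called higher. Values are given throughout in the order B28, B30 and B31 for WT, A1, A3 and A4 for vehicle, A8, A9 and A10 for AG221, A14, A16 and A17 for ruxolitinib and B24, B25 and B26 for combined therapy, with log2 fold changes ± SE. Mcm4 (chr16:15623897-15637400), a subunit of the replicative helicase, measured 397, 328 and 377 CPM in WT and 696, 539.7 and 666 in vehicle. AG221 libraries held 667, 577 and 621 CPM, ruxolitinib libraries 565, 808 and 617 and combined therapy libraries 443, 480.3 and 500.1. All 3 vehicle libraries were above all 3 WT libraries (log2 fold change 0.79 ± 0.15, adjusted p = 0.00405). Combined therapy lay between vehicle and WT. Mcm2, another subunit, measured 483, 398 and 509.9 CPM in WT and 904, 637 and 917 in vehicle (log2 fold change 0.82 ± 0.18, adjusted p = 0.00717). AG221 libraries held 573, 748 and 651 CPM, ruxolitinib libraries 740.3, 1053 and 840.0 and combined therapy libraries 557, 704 and 631. Rux A16 had its highest level and the 3 WT libraries its lowest. Mcm5, also of the helicase ring, measured 434, 346 and 446 CPM in WT and 779, 545 and 746 in vehicle (log2 fold change 0.76 ± 0.19, adjusted p = 0.0116). AG221 libraries held 1050, 690.5 and 843 CPM, ruxolitinib libraries 703, 963 and 778 and combined therapy libraries 525, 648 and 611. Every mutant library exceeded every WT library for this gene. Of the 6 Mcm genes 5 rose, by log2 fold changes of 0.59 (Mcm7) to 0.82 (Mcm2), and only Mcm6 was not called (0.13, adjusted p = 0.852), with vehicle A1 below and vehicle A3 and A4 above the 3 WT libraries.

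Of the activators of the helicase, Gins1 and Cdc45 were called higher and Gins2 was not. Gins1 (chr2:150905400-150931280), a subunit of the GINS complex, measured 26.5, 24.5 and 31.7 CPM in WT and 57.7, 40.4 and 56.9 in vehicle. AG221 libraries held 93.0, 67.4 and 83.3 CPM, ruxolitinib libraries 48.1, 58.3 and 52.4 and combined therapy libraries 40.5, 43.8 and 51.8. The WT libraries were the 3 lowest and the AG221 libraries the 3 highest of all 15, and vehicle was 1.88-fold WT (log2 fold change 0.91 ± 0.18, adjusted p = 0.00515). Cdc45, the partner of Mcm and GINS in the active helicase, measured 72.5, 55.4 and 72.9 CPM in WT and 132, 108 and 126 in vehicle. AG221 libraries held 217, 139 and 160.5 CPM, ruxolitinib libraries 128, 162 and 131 and combined therapy libraries 88.4, 117 and 113. Vehicle rose over WT (log2 fold change 0.86 ± 0.19, adjusted p = 0.00666), without overlap. Gins2 measured 31.4, 28.1 and 42.6 CPM in WT and 55.1, 39.9 and 53.8 in vehicle and did not pass (log2 fold change 0.54 ± 0.20, adjusted p = 0.0547). AG221 libraries held 87.2, 60.6 and 75.8 CPM, ruxolitinib libraries 50.3, 65.2 and 52.5 and combined therapy libraries 41.4, 52.5 and 53.6. Gins2 overlaps Gse1 on the opposite strand over 67.3% of its exonic bases, so reads of the 2 genes could not be separated without strand, and the strand setting of the counting is not given in the sources used here.

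Polymerases, clamp and nucleotide supply moved the same way. All 3 catalytic polymerase genes rose, Pola1 (alpha, which primes synthesis) by 0.64, Pold1 (delta, lagging strand) by 0.70 and Pole (epsilon, leading strand) by 0.70 on the log2 scale. Pola1 measured 221, 180.0 and 211 CPM in WT and 361, 263 and 332 in vehicle and, in the treated groups, 413, 209 and 337 CPM under AG221, 317, 393 and 314 under ruxolitinib and 205, 236 and 221 under combined therapy. Pold1 measured 224, 181 and 217 CPM in WT and 374, 302 and 333 in vehicle and, in the treated groups, 208, 311 and 241 CPM under AG221, 404, 551 and 400.5 under ruxolitinib and 276, 342 and 267 under combined therapy. Pole measured 159, 120.0 and 133 CPM in WT and 249, 225 and 195 in vehicle and, in the treated groups, 260.5, 156 and 213 CPM under AG221, 239.5, 308 and 255 under ruxolitinib and 147, 164 and 151 under combined therapy. For Pola1 and Pole the combined therapy libraries were near those of WT, and for Pold1 they were above all 3 WT libraries. Pcna, the sliding clamp, measured 209, 189 and 249.6 CPM in WT and 336, 284 and 324 in vehicle (log2 fold change 0.54 ± 0.15, adjusted p = 0.0161). AG221 libraries held 446, 337 and 441 CPM, ruxolitinib libraries 285, 365 and 325 and combined therapy libraries 258, 284 and 289. The vehicle and WT libraries did not overlap. Rrm1, Rrm2, Tyms and Tk1, which make or salvage deoxynucleotides, all rose, by 0.80, 0.91, 0.55 and 0.52. Tk1, the thymidine kinase of S phase, measured 93.4, 84.6 and 107 CPM in WT and 152, 128 and 129.5 in vehicle and, in the treated groups, 242, 169 and 207 CPM under AG221, 165, 193 and 163 under ruxolitinib and 131, 175 and 159 under combined therapy. Its 2 highest libraries were AG221 A8 and A10. Fen1, the flap nuclease, measured only 1.78, 1.48 and 2.88 CPM in WT and 3.68, 2.46 and 3.79 in vehicle and was not called (log2 fold change 0.69 ± 0.30, adjusted p = 0.0928), and 84.2% of its exonic bases lie opposite other genes. Its range was 3.67 to 4.17 CPM under AG221, 3.54 to 5.60 under ruxolitinib and 2.41 to 3.94 under combined therapy.

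In mitosis, the kinases and the chromosomal passenger survivin all rose. Aurkb (chr11:69045647-69051664), the Aurora kinase of the passenger complex, measured 148, 119 and 149 CPM in WT and 273, 233 and 251 in vehicle. AG221 libraries held 215, 300.2 and 219 CPM, ruxolitinib libraries 275, 319 and 281 and combined therapy libraries 218, 262 and 265. All 12 mutant libraries were above all 3 WT libraries (log2 fold change 0.86 ± 0.15, adjusted p = 0.00322). Birc5, which encodes survivin, measured 107, 97.9 and 137 CPM in WT and 198, 167 and 202 in vehicle (log2 fold change 0.73 ± 0.17, adjusted p = 0.00888). AG221 libraries held 317, 221 and 284 CPM, ruxolitinib libraries 192, 226 and 195 and combined therapy libraries 169.9, 217 and 196. Vehicle and WT did not overlap, and the 4 highest libraries were those of AG221 and Rux A16. Aurka, the centrosomal Aurora kinase, measured 72.7, 66.8 and 81.3 CPM in WT and 131, 99.5 and 126 in vehicle (log2 fold change 0.69 ± 0.20, adjusted p = 0.019). AG221 libraries held 226, 144 and 161 CPM, ruxolitinib libraries 139.8, 179 and 124 and combined therapy libraries 110.1, 150.1 and 130.1. The 3 WT libraries were again its lowest. Plk1, the Polo kinase, measured 80.1, 66.3 and 86.1 CPM in WT and 133, 119 and 141 in vehicle (log2 fold change 0.76 ± 0.21, adjusted p = 0.0184). AG221 libraries held 136, 153 and 139 CPM, ruxolitinib libraries 154, 257 and 150.4 and combined therapy libraries 117, 188 and 143. Rux A16 stood highest, at 257 CPM.

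Most spindle genes and both checkpoint kinases rose as well. Tpx2, which activates Aurora A on microtubules, measured 163, 129 and 155 CPM in WT and 265, 233 and 256 in vehicle (log2 fold change 0.75 ± 0.17, adjusted p = 0.00747). AG221 libraries held 348, 244 and 289.7 CPM, ruxolitinib libraries 242, 330.4 and 247 and combined therapy libraries 196, 252 and 224. Every mutant library was above WT. Kif11, the motor that separates spindle poles, measured 262, 202 and 233 CPM in WT and 369, 329 and 388 in vehicle (log2 fold change 0.64 ± 0.15, adjusted p = 0.00897). AG221 libraries held 229, 282 and 219.7 CPM, ruxolitinib libraries 384, 467 and 373 and combined therapy libraries 268, 322 and 334. AG221 A8 and A10 fell within the WT range for this gene. Of the 7 spindle and cytokinesis genes 6 rose over WT in vehicle, and Kif23, a motor of the central spindle, did not: it measured 143, 107 and 136 CPM in WT and 169, 157 and 143 in vehicle (log2 fold change 0.28 ± 0.12, adjusted p = 0.093) and, in the treated groups, 163, 141 and 149 CPM under AG221, 154, 168 and 163 under ruxolitinib and 133, 129.8 and 138 under combined therapy. Bub1 and Bub1b, the spindle checkpoint kinases, rose by 0.67 and 0.61. Bub1 measured 108, 73.9 and 90.8 CPM in WT and 139.9, 131 and 163 in vehicle and, in the treated groups, 277, 140.2 and 164 CPM under AG221, 166, 227 and 152 under ruxolitinib and 98.9, 137 and 121 under combined therapy. Its vehicle and WT libraries were separate, and AG221 A8 was its highest. Cdk1, the mitotic kinase itself, measured 129, 109 and 147 CPM in WT and 192, 182 and 177 in vehicle (log2 fold change 0.52 ± 0.16, adjusted p = 0.0271). AG221 libraries held 329, 235 and 264 CPM, ruxolitinib libraries 192, 233 and 188 and combined therapy libraries 169.6, 221 and 216. Combined therapy was about level with vehicle for this gene.

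The proliferation antigen gene Mki67 did not follow the rest. Mki67 (chr7:135689784-135716361) measured 298, 245 and 268 CPM in WT and 275, 295 and 341 in vehicle. AG221 libraries held 446, 375 and 326 CPM, ruxolitinib libraries 302, 288 and 275 and combined therapy libraries 342, 427 and 443. The vehicle libraries overlapped WT (log2 fold change 0.17 ± 0.14, adjusted p = 0.383, 95% interval -0.14 to 0.48), as did ruxolitinib (log2 fold change 0.09 ± 0.14, adjusted p = 0.636), while all AG221 and combined therapy libraries were above WT (log2 fold change 0.50 ± 0.14, adjusted p = 0.0124 and log2 fold change 0.58 ± 0.15, adjusted p = 0.0465). The Mki67 call in combined therapy against WT held in 5 of 14 alternatives, with adjusted p up to 0.181. Top2a, the topoisomerase that untangles chromosomes, measured 613, 493 and 574 CPM in WT and 862, 710.1 and 856 in vehicle (log2 fold change 0.53 ± 0.18, adjusted p = 0.0371). AG221 libraries held 1199, 703 and 898 CPM, ruxolitinib libraries 838, 1012 and 801 and combined therapy libraries 642, 789.5 and 766. All 12 mutant libraries exceeded WT for Top2a. Besides Mki67, members not called in vehicle against WT were Cdt1, Mcm6, Gins2, Fen1, Ccne1 and Ccne2 of replication and Ccna2, Ccnb2, Cdc20, Cenpa, Cenpf and Kif23 of mitosis.

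Averaged over the members of a phase, all 12 mutant libraries were above all 3 WT libraries. The mean log2 CPM of the replication members, relative to the WT mean, was -0.17 to 0.15 in the WT libraries, 0.35 to 0.72 in vehicle, 0.55 to 0.70 in AG221, 0.65 to 0.91 in ruxolitinib and 0.40 to 0.70 in combined therapy. For mitosis it was -0.18 to 0.10 in WT, 0.42 to 0.65 in vehicle, 0.40 to 0.61 in AG221, 0.57 to 0.76 in ruxolitinib and 0.42 to 0.76 in combined therapy. The 4 mutant groups overlapped each other in both phases. Counted per library, 37 to 45 of the 46 members lay above all 3 WT libraries, where 35.0% to 39.9% of all tested genes did.

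**Figure D4:**
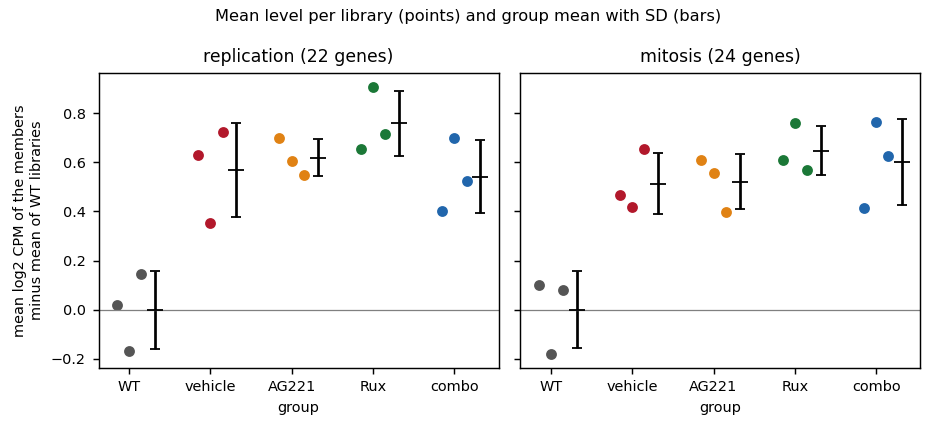
Mean log2 CPM of the 22 replication members (left) and 24 mitosis members (right) in each library (points), minus the mean of the WT libraries, with the group mean and SD beside them. The replication level was 0.57 ± 0.19 in vehicle, 0.62 ± 0.08 in AG221, 0.76 ± 0.13 in ruxolitinib and 0.54 ± 0.15 in combined therapy, and the mitosis level 0.51, 0.52, 0.65 and 0.60.

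The difference from WT was present under each drug alone. With AG221, 36 members were called higher than WT (22.2% of all tested genes were) and 1 lower (28.5% were). The one lower member was Ccna2. With ruxolitinib, 36 members were called higher (16.1% of all tested genes) and 0 lower (16.2%). The median log2 fold changes over WT were 0.87 for replication and 0.81 for mitosis with AG221, and 0.86 and 0.79 with ruxolitinib, beside -0.25 and -0.14 over all tested genes. Without the 4 libraries of low median, which leaves AG221 A9 as the only AG221 library with its spread assumed to be like that of the other groups, 17 members were called higher and 1 lower for AG221 against WT, and 36 higher and 0 lower for ruxolitinib. Without WT B30, 23 were called higher for ruxolitinib, beside 10.6% of all tested genes called in either direction. With AG221, 8 of 9 neutrophil granule genes (summed level 17355 to 20467 CPM, against 3476 to 3833 in WT), 8 of 12 erythroid genes (2896 to 3824 against 1687 to 1842) and 6 of 7 mast cell and basophil genes (684 to 801 against 108 to 192) were called higher than WT, and 8 of 8 plasma cell genes (36.0 to 117 against 605 to 1315) and 7 of 10 LSK-defining genes (2550 to 2961 against 4279 to 4664) lower. With ruxolitinib, 5 of 9 neutrophil granule genes (12195 to 19309 CPM), 9 of 12 erythroid genes (2355 to 7009) and 5 of 7 mast cell and basophil genes (417 to 446) were called higher than WT, and 7 of 8 plasma cell genes (89.3 to 222) and 3 of 10 LSK-defining genes (2902 to 3426) lower. The summed level of T and NK genes was 600 to 762 CPM with AG221 and 426 to 531 with ruxolitinib, against 155 to 220 in WT. The part of those cells in the level of the members was not tested.

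With either drug alone, no member was called against vehicle. For AG221 0 members were called by edgeR, where 0.987% of all tested genes were, and 14 had an unadjusted p under 0.05 (25.2% of all tested genes). DESeq2 called 6 higher and 2 lower, beside 2247 of 37904 genes (5.93%). Those 37904 are all genes with any count, including any that DESeq2 left without an adjusted p, while all 46 members had one. The 2 shares are therefore not on the same footing. Nearest to the threshold were Kif11 (-0.57 ± 0.15, adjusted p = 0.0625), Tk1 (0.59 ± 0.16, adjusted p = 0.0666), Cdk1 (0.59 ± 0.16, adjusted p = 0.0692) and Gins1 (0.65 ± 0.18, adjusted p = 0.0712). Without AG221 A9, 10 members were called higher and 9 lower, beside 4672 of 19125 genes (24.4%). No count is given here without the 4 libraries of low median, which leaves AG221 A9 as the only AG221 library. For ruxolitinib 0 members were called, where 0.0168% of all tested genes were, 3 had an unadjusted p under 0.05 (Pold1, Tk1 and Plk1, where 4.56% of all tested genes did) and DESeq2 called 0. Ruxolitinib gave a difference from vehicle of 0.43 for Pold1 (95% interval 0.05 to 0.81), 0.35 for Tk1 (0.01 to 0.69) and 0.51 for Plk1 (0.06 to 0.97). The medians over the 22 replication and 24 mitosis members were 0.25 and 0.20 for AG221 and 0.19 and 0.13 for ruxolitinib. Summed levels of neutrophil granule genes were 7823 to 12839 CPM in vehicle, 17355 to 20467 in AG221 and 12195 to 19309 in ruxolitinib. Those of T and NK genes were 409 to 456, 600 to 762 and 426 to 531 CPM. Those of megakaryocyte genes were 864 to 923, 353 to 585 and 669 to 780 CPM, and the part of these cells was not tested.

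Within AG221, A9 stood apart from A8 and A10 in several members, among them Cdt1, Mcm6, Cdc20 and Ccna2. Cdt1, the licensing factor, measured 88.5, 83.0 and 94.8 CPM in WT and 45.4, 68.8 and 100.4 in vehicle and, in the treated groups, 15.7, 76.5 and 17.6 CPM under AG221, 113, 35.7 and 96.7 under ruxolitinib and 121, 145 and 131 under combined therapy. Mcm6 measured 1058, 892 and 1082 CPM in WT and 727, 1112 and 1471 in vehicle and, in the treated groups, 216, 905 and 251 CPM under AG221, 1308, 531 and 1248 under ruxolitinib and 1195, 1261 and 1287 under combined therapy. Cdc20, the activator of the anaphase-promoting complex, measured 158, 132 and 174 CPM in WT and 127, 206 and 272 in vehicle and, in the treated groups, 43.0, 215 and 49.6 CPM under AG221, 241, 118 and 229.7 under ruxolitinib and 224, 294 and 251 under combined therapy. In Cdt1, Mcm6 and Cdc20 AG221 A8 and A10 were the lowest of the 15 libraries and AG221 A9 was near vehicle. The same held for Ccna2, whose values are given below. Taken over the 9 libraries lettered A, 5 members (Ccna2, Ccnb2, Cdc20, Cdt1 and Mcm6) were lower in all 4 libraries of low median than in the other 5, as were 13.2% of all tested genes, and 10 (Bub1b, Ccne2, Cenpf, Mcm3, Mcm5, Mcm7, Pola1, Rrm1, Top2a and Tpx2) were higher in all 4, as were 3.67%. These libraries and genes were chosen after their values were seen. The median GC content of the annotated transcripts was 49.3% for the 5 genes, 45.8% for the 10 and 48.7% for the other 31 members. The part of GC content or RNA quality in the split was not tested.

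Combined therapy was called higher than vehicle for 2 cyclin genes, Ccne1 and Ccna2, and lower for no member, while 32 of 46 log2 fold changes were negative. Against vehicle 2 members were called higher, where 8.28% of all tested genes were, and 0 lower, where 4.21% were. The median log2 fold change was -0.19 for replication and -0.0026 for mitosis, beside 0.04 over all tested genes. Ccne1 (chr7:38097984-38107534), which encodes cyclin E1, measured 9.36, 15.5 and 10.1 CPM in WT and 6.43, 8.17 and 12.9 in vehicle. AG221 libraries held 9.36, 12.9 and 7.46 CPM, ruxolitinib libraries 9.98, 13.0 and 11.6 and combined therapy libraries 35.3, 52.6 and 19.1. The 3 combined therapy libraries were above the other 12, at 3.89-fold vehicle (log2 fold change 1.96 ± 0.37, adjusted p = 0.0049, 95% interval 1.17 to 2.75), and the call held in all 14 alternatives. Ccna2 (chr3:36564865-36572150), which encodes cyclin A2, measured 139, 157 and 107 CPM in WT and 31.1, 64.8 and 93.9 in vehicle. AG221 libraries held 20.6, 60.6 and 15.1 CPM, ruxolitinib libraries 99.2, 27.5 and 83.2 and combined therapy libraries 256, 337 and 183. Combined therapy again held the 3 highest of the 15 values, at 4.09-fold vehicle (log2 fold change 2.03 ± 0.56, adjusted p = 0.0298, 95% interval 0.83 to 3.23), and the 9 libraries lettered A were all below the 3 WT libraries. The call of Ccna2 was lost without vehicle A1 (adjusted p = 0.126), vehicle A3 (0.0802), combo B24 (0.0773) or combo B25 (0.0999), with log2 fold changes of 1.65 to 2.43 over all 14 alternatives. It held in the other alternatives, among them the fit without the 4 libraries of low median, where the log2 fold change was 1.65. Ccna2 overlaps Exosc9 on the opposite strand over 12.5% of its exonic bases. In this comparison 3 of 7 mast cell and basophil genes were called lower (summed level 623 to 1195 CPM in vehicle and 299 to 490 in combined therapy), 2 of 12 erythroid genes were called lower (2086 to 3221 and 2215 to 3815 CPM) and 1 of 9 neutrophil granule genes was called lower (7823 to 12839 and 4305 to 7727 CPM). Of 7 megakaryocyte genes 2 were called higher and 1 lower (864 to 923 and 503 to 990 CPM), and the part of these cells in the values was not tested.

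**Figure D5:**
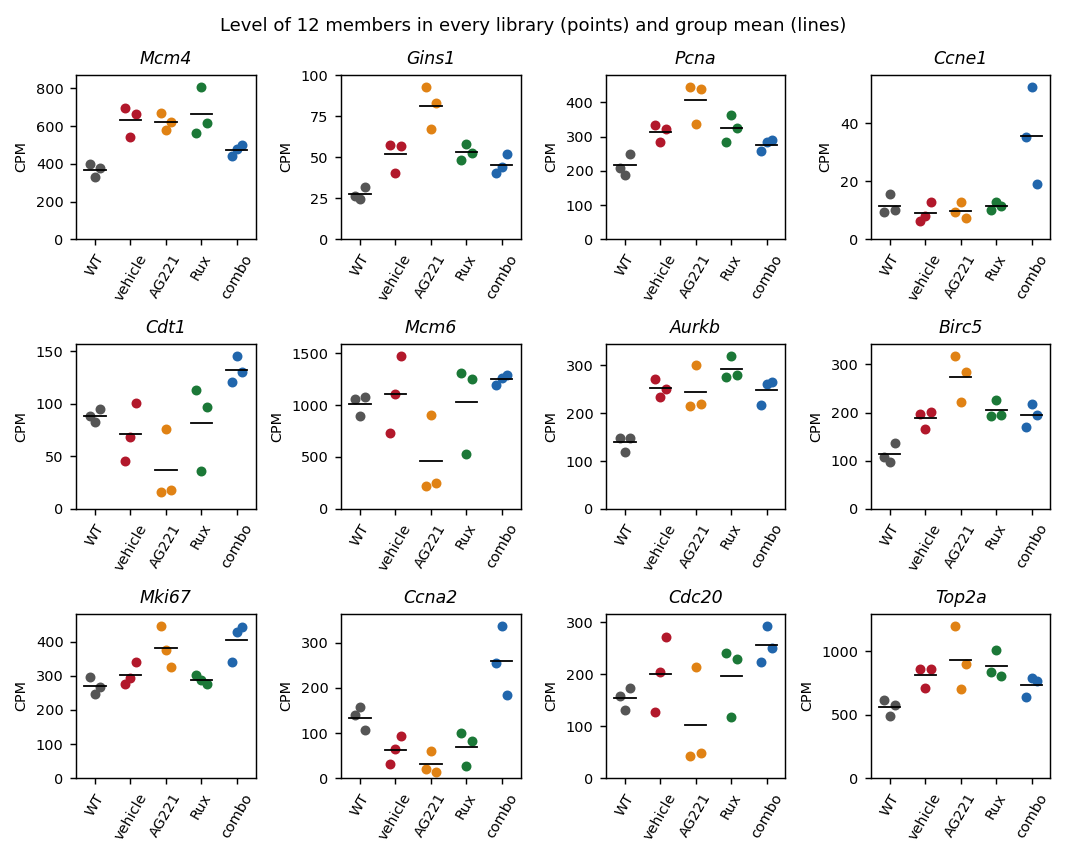
CPM of 12 members in every library (points) by group, with the group mean as a line, each axis starting at 0. Mcm4, Gins1, Pcna, Aurkb, Birc5 and Top2a have all mutant libraries above WT, Ccne1 and Ccna2 have combined therapy above all other libraries, and Cdt1, Mcm6 and Cdc20 have AG221 A8 and A10 lowest.

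Other members differed less between combined therapy and vehicle. Those with the smallest p-values after the cyclins were Pole (-0.53 ± 0.18, adjusted p = 0.0713), Mki67 (0.41 ± 0.14, adjusted p = 0.0821), Mcm4 (-0.42 ± 0.15, adjusted p = 0.084) and Pola1 (-0.53 ± 0.21, adjusted p = 0.117), and none of them was called. For Pole, Mcm4 and Pola1 the 3 combined therapy libraries were below all 3 vehicle libraries. For Mki67 they were above, though the nearest libraries were almost level (341.7 CPM in combined therapy and 340.7 in vehicle). The share of all tested genes so separated in this comparison is not given here. Against ruxolitinib alone, combined therapy was called higher for 3 members (8.5% of all tested genes) and lower for 3 (3.94%). The higher ones were Ccne1 (1.63 ± 0.37, adjusted p = 0.0103), Ccna2 (1.89 ± 0.56, adjusted p = 0.0406) and Mki67 (0.49 ± 0.14, adjusted p = 0.0422). The lower ones were Pole (-0.80 ± 0.18, adjusted p = 0.011), Pold1 (-0.61 ± 0.18, adjusted p = 0.0373) and Mcm4 (-0.48 ± 0.15, adjusted p = 0.0475). The calls of Ccne1 and Pole held in 13 of 14 alternatives each, Ccna2 in 9, Pold1 in 8, Mcm4 in 5 and Mki67 in 3. The 6 calls became 2 without Rux A16 (6.88% of all tested genes), combo B24 (5.99%) or combo B25 (6.55%). They became 3 without Rux A17 (7.53%) or combo B26 (9.92%). Against AG221 alone, 5 members were called higher (18.9% of all tested genes), namely Ccna2, Ccne1, Cdt1, Mcm6 and Ccnb2, and 9 lower (14.3%), namely Mcm5, Gins1, Gins2, Cdc45, Pcna, Tyms, Cdk1, Birc5 and Bub1. The summed level of neutrophil granule genes was 4305 to 7727 CPM in combined therapy, 17355 to 20467 in AG221 and 12195 to 19309 in ruxolitinib. That of megakaryocyte genes was 503 to 990, 353 to 585 and 669 to 780 CPM, and the part of these cells was not tested. For 2 of 46 members (4.35%), Ccna2 and Cdc45, the change under combined therapy departed from the sum of the changes under each drug. The share of all tested genes that did so was larger, at 8.42%. The 14 calls against AG221 became 34 without AG221 A9 (42.6% of all tested genes). They were 4 without AG221 A8 (15.7%) or combo B24 (17.3%), 5 without AG221 A10 (16.9%) and 6 without combo B25 (21.3%) or B26 (25.1%). No count is given without the 4 libraries of low median, which leaves AG221 A9 as the only AG221 library.

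Set against WT within letter B, cells under combined therapy kept replication and mitosis genes above WT. All 46 log2 fold changes were positive, with medians of 0.51 for replication and 0.62 for mitosis beside 0.04 over all tested genes. In 40 of 46 members the 2 groups did not overlap, where 41.6% of all tested genes did not. At an adjusted p under 0.05, 10 members were called higher (1.63% of all tested genes) and 0 lower (1.61%). The 3 of replication were Tk1 (0.70 ± 0.16, adjusted p = 0.0341), Ccne1 (1.61 ± 0.36, adjusted p = 0.0341) and Gins1 (0.72 ± 0.18, adjusted p = 0.0473). The 7 of mitosis were Mki67 and Cdk1 (0.58 and 0.66), Nusap1 (0.64), a microtubule-binding protein, and all 4 mitotic kinase and survivin genes, Aurkb (0.84 ± 0.15, adjusted p = 0.0137), Birc5 (0.77 ± 0.17, adjusted p = 0.0298), Plk1 (0.95 ± 0.21, adjusted p = 0.0341) and Aurka (0.82 ± 0.20, adjusted p = 0.0406). The count was 0 without combo B25 (0.46% of all tested genes) or WT B30 (0.803%). It was 1 without WT B28 (0.776%), 2 without combo B26 (1.77%), 4 without WT B31 (2.22%) and 7 without combo B24 (2.12%). It was 19 when only these 2 groups entered the fit (10.6%), 16 with DESeq2 (4.75% of genes with any count) and 2 with upper quartile normalization (3.59%). In this comparison 3 of 7 mast cell and basophil genes were called higher (108 to 192 CPM in WT and 299 to 490 in combined therapy) and 5 of 8 plasma cell genes were called lower (605 to 1315 and 159 to 210 CPM). Of 7 megakaryocyte genes 4 were called higher (256 to 343 and 503 to 990 CPM). Summed levels in WT and combined therapy were 4279 to 4664 and 2792 to 3645 CPM for LSK-defining genes and 3476 to 3833 and 4305 to 7727 for neutrophil granule genes. They were 1687 to 1842 and 2215 to 3815 CPM for erythroid genes and 67.6 to 96.8 and 29.0 to 58.6 for B lineage genes. Those of monocyte and dendritic genes overlapped (181 to 202 and 139 to 396 CPM). The summed level of T and NK genes was 155 to 220 CPM in WT and 369 to 404 in combined therapy, and the part of these cells was not tested.

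Genes outside the list but of the same processes were counted for comparison. In vehicle against WT 15.4% of all tested genes were called higher and 17.9% lower. Of 46 other replication genes, vehicle was called higher than WT for 27 and lower for 0, among them Atad2 (0.75, adjusted p = 0.00325), Tipin (0.86, adjusted p = 0.00595) and Mcm10 (0.95, adjusted p = 0.00798). Tipin and Mcm10 are fork and helicase factors. Of 66 other mitosis genes, 41 were called higher and 0 lower, among them Arhgap11a (0.83, adjusted p = 0.000936), Tacc3 (0.81, adjusted p = 0.00267) and Ckap2l (0.98, adjusted p = 0.00336). Of 27 tested replication-dependent histone genes 11 were called higher and 0 lower. Transcription regulators of the cycle were mixed, with 3 of 23 higher and 2 lower, E2f8 (1.40, adjusted p = 0.000655) rising and E2f6 (-1.58, adjusted p = 0.00871) falling. Between combined therapy and vehicle 5 of the 23 regulators were called higher (8.28% of all tested genes) and 0 lower (4.21%). E2f6 (2.14, adjusted p = 0.00331), E2f1 (1.28, adjusted p = 0.00635) and Lin54 (1.10, adjusted p = 0.00956) led. The other replication genes gave 1 higher and 1 lower and the other mitosis genes 0 higher and 2 lower. Both comparisons cross the letters A and B, so for these genes, E2f6 among them, the letter and the group cannot be told apart. Lin54 is the MuvB subunit that binds CHR elements, E2f1 an activating E2F and E2f6 a repressing one.

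Per kilobase of exon the members spanned a wide range of levels. In WT the mean level ran from 0.846 RPKM (CPM divided by exon length in kilobases) for Fen1 and 4.38 for Ccne1 to 131 for Mcm3 and 217 for Mcm6. Fen1 lies opposite other genes over 84.2% of its exonic bases, so its level depends on the strand setting, which is not given. In combined therapy Ccne1 reached 13.4 ± 6.31 and Ccna2 63.4 ± 18.8 RPKM (SD, n = 3), from 3.44 and 15.5 in vehicle.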

How the data were processed

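RNA was measured in 15 libraries, 3 per group, and groups were taken from the sample labels. The authors deposited raw counts per Ensembl gene, made from paired-end SMARTer libraries aligned with STAR (2.5.1a per the submitters' processing notes) to mm10, and a second table, not used here, whose signal is the counts scaled with DESeq2 by the authors. The strand setting and Ensembl release are not given in the sources used here. Symbols and GRCm38 positions came from GENCODE release M21, which matched 44585 of 45232 IDs and all members. Genes kept by filterByExpr (17834) were normalized by TMM and fitted over all 15 libraries in edgeR 4.0.16 (R 4.3.3), with quasi-likelihood tests and Benjamini-Hochberg adjustment over all tested genes at 0.05. CPM are TMM-scaled, and their log2 values had a prior count of 2 added. The procedure was tested on simulated data. No 2 libraries of a group agreed within sampling noise.

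The members and the gene lists were chosen with earlier results of these data known. All members could be named. Values in every library are given for the 4 members of each phase with the smallest p-values in vehicle vs WT, each treatment vs vehicle and combined therapy vs WT, and for Mki67, Top2a, Pcna and Mcm5. For Fen1 the treated groups are given as ranges. Of each other list at most 3 genes per comparison are named, and promoters are printed for the 2 members of each phase with the smallest p-values in combined therapy vs vehicle that have a window. Alternatives were RLE and upper quartile normalization, DESeq2 1.42.0, looser and stricter filters, GC content offsets, a fit of only the groups compared, a threshold of 1e-04 and leaving out each library. Leaving out 4 libraries together was chosen after seeing the data. The Wilson intervals and the floors cover counting error only, and intervals of fold changes include the spread between libraries.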

Additional observations from a re-analysis of the deposited data

Results flagged for a closer look

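The change under combined therapy was tested in edgeR for departure from the sum of the changes under AG221 and ruxolitinib alone. The departure was called for 2 of 46 members (4.35%), a smaller share than the 8.42% of all tested genes called. For Ccna2 the departure was 2.87 on the log2 scale (adjusted p = 0.0439), with changes against vehicle of -0.98 under AG221, 0.15 under ruxolitinib and 2.03 under combined therapy. It was called in 10 of 20 alternatives, with values of 1.90 to 3.72 and adjusted p of 0.00278 to 0.111. For Cdc45 the departure was -0.90 (adjusted p = 0.049), with changes of 0.50, 0.20 and -0.20. It was called in 6 of 20 alternatives, with values of -1.24 to -0.54 and adjusted p of 0.0082 to 0.459. The combined therapy libraries are lettered B and the other 3 groups of this test A, so the letter and the departure cannot be told apart. Neither was called without the 4 libraries of low median, where the departure was 1.90 for Ccna2 and -0.54 for Cdc45. That fit holds AG221 A9 as the only AG221 library, with its spread assumed to be like that of the other groups.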

How the results depend on the processing

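The study matched recipients on hematocrit, leukocyte count, donor chimerism and body weight before randomizing them within the matched sets. The labels do not give those sets and the groups share no replicate name, so no paired analysis was possible. Counts of called members depended on the libraries, as did the share of all tested genes called, and the cause was not tested. That share was 33.3% in the main fit and 10.5% without WT B30 for vehicle vs WT, and 3.25% and 0.803% for combined therapy vs WT. Without AG221 A9 it was 42.6% for combined therapy vs AG221 (33.2% in the main fit). For the departure from the sum of both drugs it was 31.8% without AG221 A9 (8.42% in the main fit). Leaving out 1 library gave 8 to 34 members for vehicle vs WT, 29 to 38 for AG221 vs WT, 23 to 36 for ruxolitinib vs WT, 0 to 7 for combined therapy vs WT, 0 to 19 for AG221 vs vehicle, 0 to 0 for ruxolitinib vs vehicle, 1 to 2 for combined therapy vs vehicle, 4 to 34 for combined therapy vs AG221, 2 to 4 for combined therapy vs ruxolitinib and 0 to 30 for the departure from the sum of both drugs, where the highest value was that without AG221 A9. At an edgeR adjusted p under 1e-04, 0 members were called in any comparison, where 0% to 0.578% of all tested genes were. Upper quartile normalization, which moved the median of all genes in combined therapy vs WT from 0.04 to -0.16, gave 14 members for vehicle vs WT, 2 for combined therapy vs WT, 3 for AG221 vs vehicle, 31 for combined therapy vs AG221 and 17 for the departure. The shares of all tested genes were, in the same order, 27.4%, 3.59%, 4.14%, 39.4% and 17.5%. RLE gave 6 for combined therapy vs WT (2.95% of all tested genes) and 4 for the departure (8.89%). A minimum of 10 counts in every library gave 2 for combined therapy vs WT, 5 for AG221 vs vehicle, 4 for combined therapy vs vehicle, 26 for combined therapy vs AG221 and 13 for the departure. The shares of all tested genes were, in the same order, 2.15%, 7.12%, 17.1%, 45.6% and 19.5%. With only the groups compared, the counts were 19 for combined therapy vs WT, 4 for combined therapy vs vehicle, 5 for combined therapy vs AG221 and 0 for the departure. The shares of all tested genes were, in the same order, 10.6%, 15.7%, 24.9% and 1.03%. DESeq2 gave 16 for combined therapy vs WT, 8 for AG221 vs vehicle and 11 for the departure. Of the 37904 genes with any count it called 4.75%, 5.93% and 9.68%. GC content offsets gave 22 for combined therapy vs AG221 (36.5% of all tested genes) and 5 for the departure (11.4%). No filter beyond 1 count gave 3 for combined therapy vs ruxolitinib (5.14%) and 1 for the departure (4.95%). Without the 4 libraries of low median the counts were 18 for AG221 vs WT, 20 for combined therapy vs WT, 4 for combined therapy vs vehicle, 1 for combined therapy vs AG221 and 0 for the departure. Under upper quartile scaling the mean level over WT was 0.34 (replication) and 0.40 (mitosis) in combined therapy and 0.71 (replication) in AG221. From 100 bases before to 50 after the start, E2F letters were in 5.0% of mitosis promoters, CHR letters in 11.8% of replication promoters, and E2F, CHR and CCAAT letters in 6.49%, 9.87% and 26.3% of all promoters. No called log2 fold change of a named member turned its direction under any alternative run.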
